A study of Mus musculus with 76 samples.

Results

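The genes described here are Npl and 6 other enzymes of sialic acid metabolism, Nans, Cmas, Gne, Neu1, Renbp and Nagk, which are 7 of the 55536 genes in the count table of 38 whole mouse tumors. Npl was selected on its measured counts, since it had the smallest p of all genes when CT26 tumors given catalase were compared with CT26 tumors given alum alone, and the other 6 were added as enzymes of the same sugar. All 7 passed the filter on low counts, as did 14646 genes in all. The study asked whether catalase, an enzyme that breaks down hydrogen peroxide, changes the transcriptome of a tumor when it is kept outside the cells (EC CAT) or made inside them (IC CAT). EC CAT was given as CAT-ABP, a human catalase joined to a peptide that binds the aluminum salt alum, so that it stays where it is injected.

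Adult female Balb/c mice carried tumors under the skin of the flank, grown from 1000000 cells of CT26, a colorectal carcinoma line, or from 500000 cells of 4T1, a mammary carcinoma line, or of the 4T1-derived lines 4T1-CAT and 4T1-control. All tumors received 100 μg of alum on day 6 and were taken on day 8, as the labels give the days (the study's text gives later ones), and the CAT-ABP + alum groups received 20 μg of CAT-ABP with it. CT26 and 4T1 were each represented by 6 tumors given CAT-ABP + alum and 5 given alum, 4T1-CAT by 5 of either kind, and 4T1-control by 6 given alum. 4T1-CAT cells carry human catalase and GFP, and 4T1-control cells GFP alone, under a promoter induced by doxycycline (DOX). Both were made with lentivirus and sorted for GFP, and only their hosts ate a DOX diet, from day 4. Engineering, sorting and DOX therefore cannot be told apart from each other in a comparison of 4T1-control with 4T1, and the human transgene was not in the mouse counts.

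Sialic acids are sugars that cap the glycans of cell surfaces and secreted proteins. Cells make them from UDP-GlcNAc through ManNAc, activate them to CMP-sialic acid, and attach them with sialyltransferases. Sialidases remove them again, mostly in lysosomes, and the freed sugar is either reused or cleaved back to ManNAc and pyruvate. Sialylated glycans are read by Siglec receptors of immune cells, for which they are best known in tumors.

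In the order of the pathway, Gne (ENSMUSG00000028479, chromosome 4 from 44034075 to 44084177) makes ManNAc from UDP-GlcNAc and phosphorylates it, the step that limits synthesis. Nans (ENSMUSG00000028334, chromosome 4 from 46489248 to 46503632) joins the phosphorylated ManNAc to phosphoenolpyruvate, which gives sialic acid phosphate. Cmas (ENSMUSG00000030282, chromosome 6 from 142756686 to 142775714) activates sialic acid to CMP-sialic acid. On the way back, Neu1 (ENSMUSG00000007038, chromosome 17 from 34931253 to 34935953) is the main lysosomal sialidase, and Npl (ENSMUSG00000042684, chromosome 1 from 153503015 to 153550045, minus strand) is the lyase that splits free sialic acid into ManNAc and pyruvate. Renbp (ENSMUSG00000031387, chromosome X from 73922121 to 73930850) interconverts ManNAc and GlcNAc, and Nagk (ENSMUSG00000034744, chromosome 6 from 83794982 to 83804018) phosphorylates GlcNAc for reuse. Positions are those of GENCODE M21 on GRCm38 and span each protein-coding gene.

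RefSeq promoters (GRCm38.p6, 250 bases before to 50 after a start site) were held for 6 of the 7 genes, in 7 entries. The letters CACGTG, an E-box that reads the same on both strands, stood in 7.15% of the 32851 promoters of the mouse table and, among these genes, in that of Npl alone, from 51 to 46 bases before its RefSeq start. The stretch of 30 bases around it, at chr1:153549748-153549777 on the minus strand, is shown because Npl is the gene the selection rests on, and its capitals mark the E-box. The stretch lies inside the GENCODE span of Npl given above, whose upstream end is not the RefSeq start used here.
Npl: cccgcgcggcccCACGTGgtcccgcagccc
A match of letters describes the sequence only.

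RNA of each tumor was read near the 3′ ends of transcripts in 2 technical libraries, whose estimated counts were added. The median total per tumor was between 3523254 in 4T1-control and 5977654.5 in CT26 given CAT-ABP + alum. The shallowest tumors were 4T1-control replicate 2, with 493044 counts, and 4T1 CAT-ABP + alum replicate 4, with 837403. Npl was read with 26 to 653 counts per tumor, Nagk with 25 to 729, Nans with 16 to 213, Cmas with 7 to 202, and Gne, Neu1 and Renbp with as few as 4. Levels are CPM, counts scaled to a total of 1000000 after TMM normalization, with SD over tumors, and because the method reads 3′ ends they are not divided by transcript length. CT26 tumors held little RNA of epithelial markers. The 6 markers summed to 57.9 ± 17.4 CPM (SD, n = 5) with alum against 2423 ± 410 (SD, n = 5) in 4T1 with alum, and Epcam had 2.66 against 379 CPM. The index tags of the libraries fell into 2 sets. One was carried by all CT26 tumors, all 4T1 tumors given CAT-ABP + alum and 4T1 alum replicates 1 and 2, and the other by 4T1 alum replicates 3, 4 and 5 and all 4T1-control and 4T1-CAT tumors. For 1 library, technical replicate 2 of 4T1-CAT alum replicate 3, the identifier and the tag field of the sample sheet disagree, and the tag field holds the tag of replicate 2 of that group. Both tags are of the same set, and the library was kept under its title. In whole tumors, fewer cells of a type and less RNA per cell cannot be told apart.

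Npl had its lowest level in CT26 tumors given alum and was about 2.11-fold higher in CT26 tumors given CAT-ABP + alum. The 5 alum tumors had 10.3, 14.7, 13.1, 15.9 and 14.7 CPM, and the 6 CAT-ABP + alum tumors had between 24.3 and 37.1 CPM, with a median of 27.5. The highest alum tumor lay below the lowest CAT-ABP + alum tumor. The means were 13.7 ± 2.15 CPM (SD, n = 5) and 28.8 ± 4.69 (SD, n = 6), a log2 fold change of 1.08 (standard error, SE, 0.16, 95% confidence interval 0.74 to 1.42). These values chose the gene, so they are given as a description and carry no test. The technical libraries are parts of the same counts and add no support. As CPM on raw library totals, the range was 10.2 to 18.8 with alum and 23.7 to 28.3 with CAT-ABP + alum in technical replicate 1, and 8.73 to 14.3 and 18.4 to 29.8 in technical replicate 2.

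**Figure D1:**
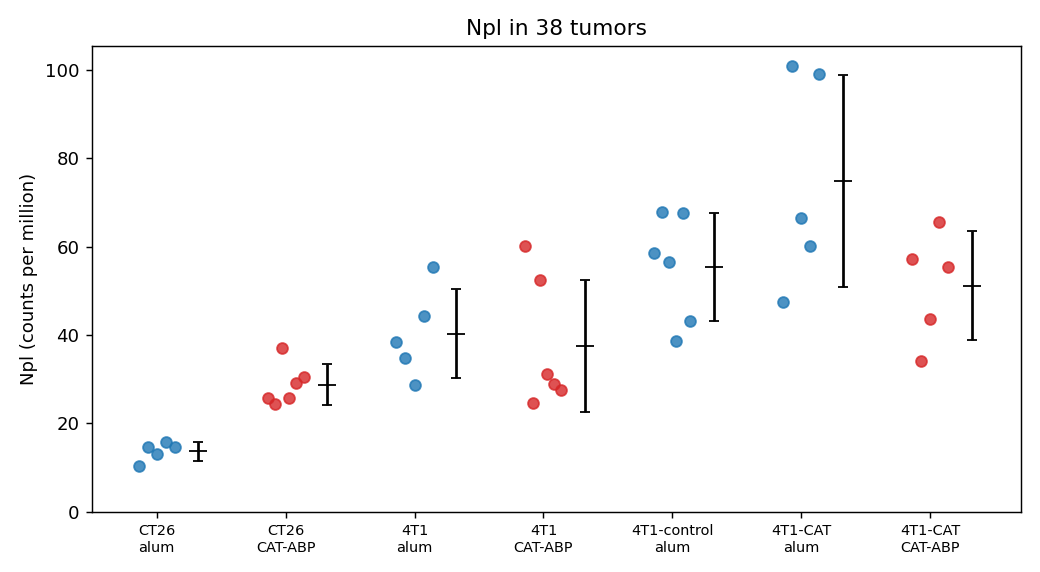
Npl in CPM (y axis) in each of the 38 tumors, by group (x axis). Points are tumors (blue, alum; red, CAT-ABP + alum), and the bar and whiskers are the group mean and SD. The CT26 alum tumors, at 10.3 to 15.9 CPM, lie below all other tumors.

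In that comparison, 0 of 12830 genes (0%) reached an adjusted p of 0.05 in edgeR (quasi-likelihood, Benjamini-Hochberg). At an unadjusted p under 0.05 there were 314 genes (2.45%), DESeq2 called 1 gene, and 38 genes (0.297% of those with a level) had groups that did not overlap. Just outside the choice stood Dbp, Tef and Arntl, with the next smallest p. All are genes of the circadian clock, Arntl as an activator and Dbp and Tef as its output factors. The mean of Dbp was 7.57 ± 2.49 CPM in the alum tumors and 1.49 ± 1.37 in the others, that of Tef 20.3 ± 5.53 and 10.3 ± 2.07 CPM, and that of Arntl 13.3 ± 2.43 and 23.7 ± 5.35 CPM. Their log2 fold changes were -2.37, -1.01 and 0.80. Of the other clock genes fitted, Per2 had -1.60, Per3 -0.80, Nr1d2 -0.69 and Ciart -0.43. Clock had 0.17, Cry1 -0.16, Cry2 -0.13 and Per1 0.09, and the groups overlapped for each of these genes. The clock genes were listed after Dbp, Tef and Arntl had been seen in this comparison, so their list is not independent of it. Clock genes were not tested as a set.

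The other 6 enzymes showed no such separation in CT26. Their log2 fold changes with CAT-ABP lay between -0.15 for Renbp and 0.07 for Nans, each with an SE of 0.15 to 0.33, and the groups overlapped for each of the 6. The median over the 7 genes was -0.01, beside -0.00 over all genes. Nagk, the most abundant of them, had 98.2 ± 28.6 CPM with alum and 99.9 ± 16.8 with CAT-ABP + alum, and Neu1, which had the largest SE, had 12.2 ± 5.37 and 11.6 ± 4.91 CPM. These too belong to the comparison that chose Npl and were not tested. The 15 macrophage and monocyte markers, all of which passed the filter and none of which was at 0 in all tumors (C1qa was at 0 in 1), summed to 3701 ± 71.4 CPM with alum and 3513 ± 650 with CAT-ABP + alum. Their most abundant gene, Lyz2, made up 57.2% of the list over all tumors and had a log2 fold change of -0.09 in CT26, and the list's median was -0.06. The 6 tested neutrophil markers all had positive values, with a median of 0.52. The most abundant of them in CT26, Cxcr2, had means of 39.9 CPM with alum and 50.5 with CAT-ABP + alum. Their list summed to 90.9 ± 19.3 CPM with alum and 122 ± 31.7 with CAT-ABP + alum. Of the 9 tested T and NK cell markers, 8 had negative values, with a median of -0.24, and the sums were 586 ± 103 and 434 ± 206 CPM. Skeletal muscle markers were negative in 5 of 6, with a median of -0.35. In each of these lists 0 genes passed in edgeR. That count was fixed, since 0 of the 12830 genes of this comparison passed, and it says nothing about the lists. The part of these cells in the level of Npl was not tested.

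Over the 7 groups, the means of Npl spanned a 5.44-fold range, whose low end is the CT26 alum group that took part in its choice. Over the 5 groups other than CT26, the range was 1.99-fold for Npl and 1.203-fold to 1.47-fold for the other enzymes. From low to high, after CT26 alum and CT26 CAT-ABP + alum, the means were 37.5 ± 15.0 CPM in 4T1 CAT-ABP + alum, 40.3 ± 10.1 in 4T1 alum, 51.2 ± 12.4 in 4T1-CAT CAT-ABP + alum, 55.5 ± 12.2 in 4T1-control alum and 74.8 ± 24.0 in 4T1-CAT alum. From CT26 CAT-ABP + alum upward, the ranges of neighbors in this order overlapped, and only CT26 alum stood apart from its neighbor. CT26 alum was lower than 4T1 alum by a log2 fold change of -1.57 (SE 0.19), and CT26 CAT-ABP + alum was lower than 4T1 CAT-ABP + alum by -0.43 (SE 0.22, 95% confidence interval -0.88 to 0.02). Both values rest on the tumors that chose Npl and were not tested.

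In 4T1, which the choice did not use, no difference in Npl between CAT-ABP + alum and alum passed the test. The alum tumors had 38.3, 34.9, 28.7, 44.4 and 55.3 CPM, and the 6 CAT-ABP + alum tumors had between 24.6 and 60.2 CPM, with a median of 30.1. The groups overlapped across nearly their whole range, and CAT-ABP + alum replicates 1 and 3 stood above the other 4 tumors of their group. The log2 fold change was -0.11 (SE 0.23, 95% confidence interval -0.59 to 0.37, adjusted p = 0.9998, edgeR, Benjamini-Hochberg). Among the 8 tumors of the index tag set that both groups share it was 0.04. Of 13092 genes, 0 (0%) passed, 418 (3.19%) had an unadjusted p under 0.05, and DESeq2 called 0. Whether the effect on Npl differed between CT26 and 4T1 was not tested, since the CT26 values chose the gene.

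The EC CAT comparison in 4T1-CAT and the IC CAT comparison of 4T1-CAT with 4T1-control share the 4T1-CAT tumors given alum, in which Npl was highest. Those tumors had 47.4, 101, 66.4, 60.1 and 99.0 CPM. With CAT-ABP + alum, 4T1-CAT tumors had 57.2, 34.0, 43.7, 65.7 and 55.4 CPM, and the 6 4T1-control tumors had between 38.7 and 68.0 CPM, with a median of 57.6. Replicates 2 and 5 of the 4T1-CAT alum tumors exceeded every other tumor of the study, and the remaining 3 lay within the range of 4T1-control. The log2 fold change of Npl was -0.53 with CAT-ABP in 4T1-CAT (SE 0.22, unadjusted p = 0.0316, adjusted p = 0.269, edgeR, Benjamini-Hochberg). For IC CAT it was 0.47 (SE 0.21, unadjusted p = 0.0391, adjusted p = 0.768, same test). Neither passed. Without 4T1-CAT alum replicate 3, which holds the library with disagreeing tags, the values were -0.57 and 0.51 (adjusted p = 0.400 and 0.670, edgeR, Benjamini-Hochberg). Of 13093 genes tested in the first comparison, 0 (0%) passed, 2102 (16.1%) had an unadjusted p under 0.05 and DESeq2 called 266, none of them one of the 7 enzymes. Without 4T1-CAT alum replicate 2, edgeR called 155 genes in it, and Npl had a log2 fold change of -0.38 (adjusted p = 0.416). Of 12534 genes in the IC CAT comparison, 0 (0%) passed, 758 (6.05%) had an unadjusted p under 0.05 and DESeq2 called 6, again none of the 7.

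Markers of other cells are set beside Npl in these comparisons. For IC CAT, Cd163, a scavenger receptor of tissue macrophages, had a mean of 57.9 CPM in 4T1-CAT alum and 16.2 in 4T1-control alum (log2 fold change 1.94, SE 0.51, adjusted p = 0.473, edgeR, Benjamini-Hochberg). Lyz2 had a log2 fold change of -0.07, the 15 markers summed to 2741 ± 613 CPM against 2575 ± 730, 0 of the 14 tested passed, and their median log2 fold change was 0.20, beside -0.01 over all genes. Every tested marker of erythroid cells (4, median 0.94), T and NK cells (7, 0.84), skeletal muscle (6, 0.73), neutrophils (6, 0.61) and fibroblasts (7, 0.39) also had a positive value, and 0 passed. With CAT-ABP in 4T1-CAT, where Npl had a negative value, so did 14 of 15 macrophage markers (median -0.24), 8 of 8 of T and NK cells (-0.41), 7 of 7 of fibroblasts (-0.41) and 5 of 6 of skeletal muscle (-0.54), and 0 passed. Erythroid and neutrophil markers lay near 0 in that comparison, with medians of -0.06 (3 of 4 negative) and -0.04 (4 of 7 negative). Epithelial markers had medians of -0.05 for IC CAT and 0.14 with CAT-ABP in 4T1-CAT. The part of these cells in the level of Npl was not tested.

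Between 4T1-control and 4T1, both given alum, Npl had a log2 fold change of 0.40 (SE 0.18, unadjusted p = 0.0444, adjusted p = 0.404, edgeR, Benjamini-Hochberg). It was 0.36 among the 9 tumors of the shared index tag set. Of the tested markers, 6 of 6 of T and NK cells had positive values (median 0.53). Negative values were held by 6 of 6 epithelial (-0.27), 6 of 6 neutrophil (-0.18), 3 of 3 erythroid (-0.41) and 12 of 14 macrophage markers (-0.11). In these lists 0 passed, and the part of these cells in the level of Npl was not tested. Of 12431 genes, 3 (0.0241%) passed and 1451 (11.7%) had an unadjusted p under 0.05. The 3 were not among the 7 enzymes, and without 1 tumor at a time the count ranged from 0 (without 4T1 replicate 1 or 4 or 4T1-control replicate 1, 5 or 6) to 20 (without 4T1-control replicate 3). It was 0 with RLE size factors and in each technical replicate alone.

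Gne, the first enzyme of synthesis, was the other member with an unadjusted p under 0.05 in both comparisons that share the 4T1-CAT alum tumors. Its values there were 6.87, 5.47, 7.07, 7.46 and 7.49 CPM, beside 5.06, 5.44, 5.71, 3.92 and 3.25 with CAT-ABP + alum, and 2.60 to 8.77 CPM, with a median of 4.65, in 4T1-control. The 4T1-CAT groups overlapped only where CAT-ABP + alum replicate 3 exceeded alum replicate 2. The log2 fold changes were -0.59 with CAT-ABP in 4T1-CAT (SE 0.21, adjusted p = 0.217) and 0.61 for IC CAT (SE 0.28, adjusted p = 0.795, both edgeR, Benjamini-Hochberg), and neither passed. As a difference between the effects of CAT-ABP in 4T1-CAT and in 4T1, Gne had -0.89 (SE 0.31, unadjusted p = 0.00816, adjusted p = 0.470, interaction term in edgeR). Gne was read with few counts, 4 to 70 per tumor.

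Npl's own difference of effects was -0.42 (SE 0.35, adjusted p = 0.729, the same interaction term), with a 95% confidence interval from -1.13 to 0.29. In that test 0 of 13851 genes (0%) passed and 1339 (9.67%) had an unadjusted p under 0.05. Cmas had -0.42 between 4T1-control and 4T1 (SE 0.18, unadjusted p = 0.0308, adjusted p = 0.355, edgeR, Benjamini-Hochberg), which also did not pass. In the 4 comparisons of treatment or engineering in which the enzymes were tested, 0 of the 7 passed, and the median width of their 95% confidence intervals was 0.77 to 0.85 log2 units.

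**Figure D2:**
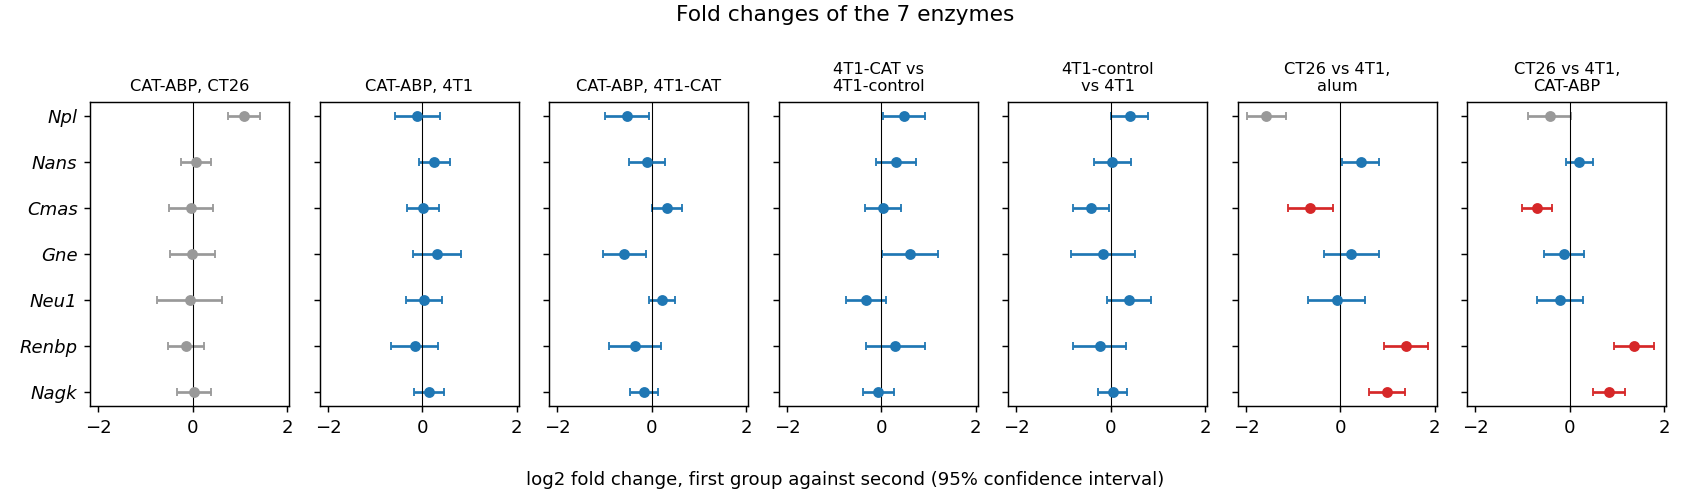
Log2 fold change (x axis) of each of the 7 enzymes (y axis) in the 7 comparisons, with 95% confidence intervals. Red marks an adjusted p of 0.05 or less, blue an adjusted p above it, and gray a value that belongs to the choice of Npl and was not tested. Cmas, Renbp and Nagk are red in both comparisons of CT26 with 4T1 and no gene is red elsewhere.

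CT26 and 4T1 differed in 3 of the 6 enzymes other than Npl, a share near that of all genes. Renbp and Nagk, the enzymes that return ManNAc and GlcNAc to the pool, were higher in CT26 than in 4T1, and Cmas, which activates sialic acid, was lower. The comparison was made in alum tumors and again in CAT-ABP + alum tumors, with no tumor in both. Of 12817 genes tested in alum tumors, 5605 (43.7%) passed, and of 13016 in CAT-ABP + alum tumors, 6205 (47.7%). Beside these shares, 3 of the 6 enzymes other than Npl passed in each. Groups that did not overlap were found for 29.9% and 22.3% of genes, and for Renbp and Nagk in both comparisons.

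Renbp had 18.3, 24.4, 21.9, 26.7 and 31.2 CPM in CT26 given alum, and 9.24, 11.2, 9.13, 5.88 and 12.6 in 4T1 given alum. With CAT-ABP + alum it lay between 15.1 and 29.6 CPM, median 22.4, in CT26 and between 4.60 and 9.97 CPM, median 9.51, in 4T1. Every CT26 tumor was above every 4T1 tumor of the same treatment. The log2 fold change was 1.39 with alum (SE 0.22, adjusted p = 9.3e-05) and 1.37 with CAT-ABP + alum (SE 0.20, adjusted p = 2.38e-05, both edgeR, Benjamini-Hochberg).

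Nagk had 73.8, 78.2, 83.2, 115 and 140 CPM in CT26 given alum and 47.6, 47.3, 56.6, 44.8 and 51.1 in 4T1 given alum. With CAT-ABP + alum the ranges were 75.1 to 121 CPM, median 96.0, in CT26 and 42.1 to 74.4 CPM, median 56.4, in 4T1. The groups did not overlap, although the lowest CT26 and the highest 4T1 tumor given CAT-ABP + alum were close. The log2 fold change was 0.99 with alum (SE 0.18, adjusted p = 0.000299) and 0.83 with CAT-ABP + alum (SE 0.16, adjusted p = 0.000395, both edgeR, Benjamini-Hochberg). Leaving out any single tumor kept both Renbp and Nagk past the threshold, with log2 fold changes of 1.19 to 1.499 and 0.77 to 1.08, and in the index tag set that the alum groups share they were 1.22 and 1.04.

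Cmas had 12.9, 20.0, 11.3, 8.23 and 8.46 CPM in CT26 given alum and 19.9, 22.5, 16.1, 18.6 and 14.7 in 4T1 given alum. CT26 alum replicate 2 lay within the range of 4T1, and the other 4 below it. With CAT-ABP + alum the ranges were 9.50 to 13.8 CPM, median 11.4, in CT26 and 11.99 to 22.4 CPM, median 17.9, in 4T1. The log2 fold change was -0.64 with alum (SE 0.22, adjusted p = 0.0294) and -0.71 with CAT-ABP + alum (SE 0.15, adjusted p = 0.000911, both edgeR, Benjamini-Hochberg). With alum the call was lost when any of CT26 replicates 3, 4 and 5 or 4T1 replicates 1, 2 and 4 was left out, at values from -0.64 to -0.55. It was also lost in the shared index tag set, at -0.87 (adjusted p = 0.0533), and in technical replicate 2 alone, at -0.39. With CAT-ABP + alum it held without each tumor in turn and was lost in technical replicate 2 alone, at -0.53.

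The remaining enzymes did not pass in either comparison. Nans, near the threshold, had a log2 fold change of 0.43 (SE 0.18, adjusted p = 0.0703) with alum and 0.20 (SE 0.14, adjusted p = 0.238) with CAT-ABP + alum. Nans did pass with alum in 1 model over all 7 groups (0.43, adjusted p = 0.0401), with the index tag set as a covariate (0.75, adjusted p = 0.0364) and without 4T1 alum replicate 5 (0.52, adjusted p = 0.0386, all edgeR), and with CAT-ABP + alum by limma voom (0.29, adjusted p = 0.0433). Gne had 0.23 and -0.13 and Neu1 -0.08 and -0.21, with SEs of 0.20 to 0.29 (all edgeR, Benjamini-Hochberg). Other cells moved with the lines. With alum, T and NK cell markers summed to 586 ± 103 CPM in CT26 and 43.5 ± 2.96 in 4T1, macrophage markers to 3701 ± 71.4 and 2562 ± 765, and epithelial markers differed as given above. Of those tested, 9 of 9 T and NK cell markers and 6 of 15 macrophage markers were higher in CT26 and 6 of 6 epithelial markers lower, but 4 of the T and NK cell and 3 of the epithelial markers would not have passed the filter in the line where they are low alone, so their calls are in part set by it. Gzmb, the most abundant T and NK cell gene, had a mean of 73.6 CPM over all tumors, and Krt18, the most abundant epithelial one, 661. Cd79a, a B cell marker, was at 0 in all 38 tumors. The part of these cells in the levels of Renbp, Nagk and Cmas was not tested.

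**Figure D3:**
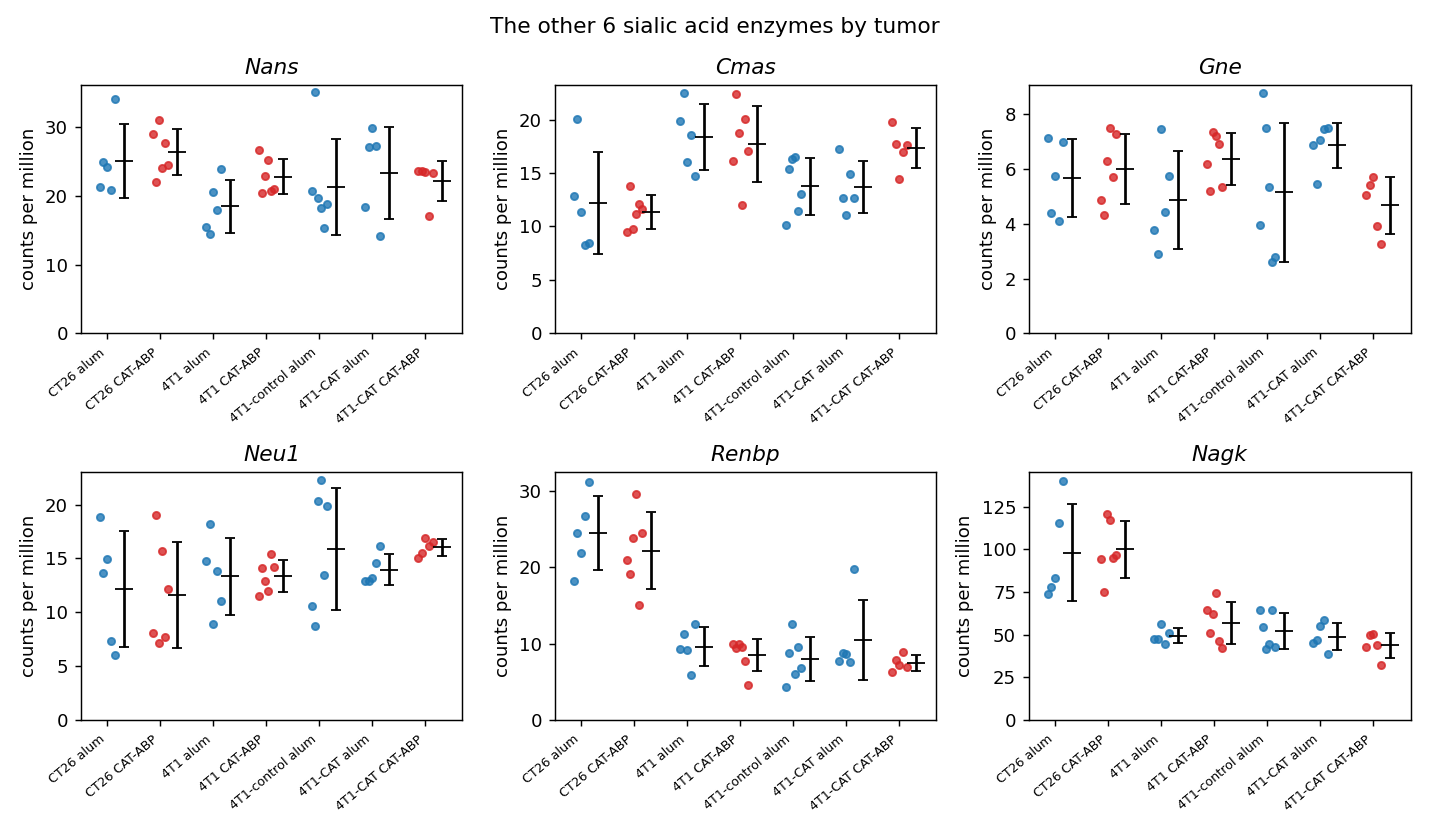
Levels of the other 6 enzymes in CPM (y axes, each with its own scale) in the 38 tumors, by group (x axes). Points are tumors (blue, alum; red, CAT-ABP + alum), and bars and whiskers are the group mean and SD. Renbp and Nagk are higher in both CT26 groups than in the 4T1 groups, and the CAT-ABP groups overlap with their alum groups in every panel.

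The wider pathway, 55 genes in 5 roles, was listed from general knowledge with earlier results of these tumors known, and 39 of the 55 passed the filter over the 7 groups. For EC CAT in 4T1, IC CAT, EC CAT in 4T1-CAT and 4T1-control against 4T1, 0 of the 35 to 37 tested passed. The share of all genes was 0.0241% for 4T1-control against 4T1 and 0% for the others, so these counts show nothing particular to the pathway. EC CAT in CT26, which chose Npl, is left out here. Between CT26 and 4T1, Npl is left out of the counts since its values there were not tested. With alum, 8 of 35 were higher and 8 lower, which is 45.7% called beside 43.7% of all genes, and the median log2 fold change was 0.10, beside 0.02. With CAT-ABP + alum, 8 of 35 were higher and 10 lower, which is 51.4% beside 47.7%, and the median was -0.17, beside -0.02. These shares are near those of all genes.

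Among those attaching sialic acid, St6gal1, the enzyme that adds it to the galactose of N-glycans, had a mean of 4.45 CPM in CT26 and 42.3 in 4T1 with alum, and 4.39 and 31.8 with CAT-ABP + alum. Its log2 fold changes were -3.24 and -3.02 (SEs 0.20 and 0.23). St3gal4, another sialyltransferase of galactose, was lower by -1.76 and -1.63 (SEs 0.19 and 0.12). Of the 8 sialyltransferases tested, 2 were lower with alum and 3 with CAT-ABP + alum, and 0 were higher, shares of 25% and 37.5% that lie below those of all genes. All of these passed in edgeR with adjusted p of 0.0163 or less. The call of St3gal1, the third with CAT-ABP + alum (-0.54, SE 0.17), was lost without 4T1 CAT-ABP + alum replicate 2 (-0.49) or 5 (-0.43) and in technical replicate 2 alone (-0.43).

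Among those that release and break down the sugar, Gnpda2, a deaminase that returns amino sugar to glycolysis, had log2 fold changes of -2.82 and -2.84 (SEs 0.26 and 0.18), and Siae, which removes acetyl groups from sialic acid, -1.19 and -1.34 (SEs 0.15 and 0.19). Without Npl, 4 genes of this role were higher and 4 lower of 11 with alum, and 4 were higher and 5 lower of 12 with CAT-ABP + alum, shares of 72.7% and 75% that lie above those of all genes, and Amdhd2, a deacetylase of amino sugars counted with alum, reached the filter's level in 4 of 5 4T1 tumors. Neu2, the cytosolic sialidase, is counted with CAT-ABP + alum and passed the filter only through 4T1, so it had to differ. Its means were 0.124 CPM in CT26 and 3.35 in 4T1.

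Of the receptors, 3 were higher and 1 lower of 4 with alum, and 2 were higher and 1 lower of 3 with CAT-ABP + alum, so that all of these few were called. Siglec1, a macrophage Siglec, was higher in CT26 by 1.16 and 1.29 (SEs 0.30 and 0.16), and Cd33, a myeloid Siglec, lower by -2.07 and -1.05 (SEs 0.24 and 0.27). Siglech, a receptor of plasmacytoid dendritic cells, was higher with CAT-ABP + alum by 1.201 (SE 0.27). With alum, Siglech and Cd22, a B cell Siglec, passed the filter only through CT26 and had to differ, and Cd33 reached its level in 4 of 5 CT26 tumors. Siglech had means of 8.05 CPM in CT26 and 1.53 in 4T1 there, and Cd22 5.37 and 1.05. Among the abundant genes, Gnpnat1, an enzyme of UDP-GlcNAc supply, passed with CAT-ABP + alum (0.52, SE 0.15, adjusted p = 0.0099, edgeR), though not in technical replicate 2 alone (0.31), and not with alum (0.44, SE 0.22, adjusted p = 0.119). Uap1, which makes UDP-GlcNAc, had -0.01 and -0.17, and Ctsa, the protein that stabilizes Neu1 in the lysosome, -0.04 and 0.01, and neither passed.

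**Figure D4:**
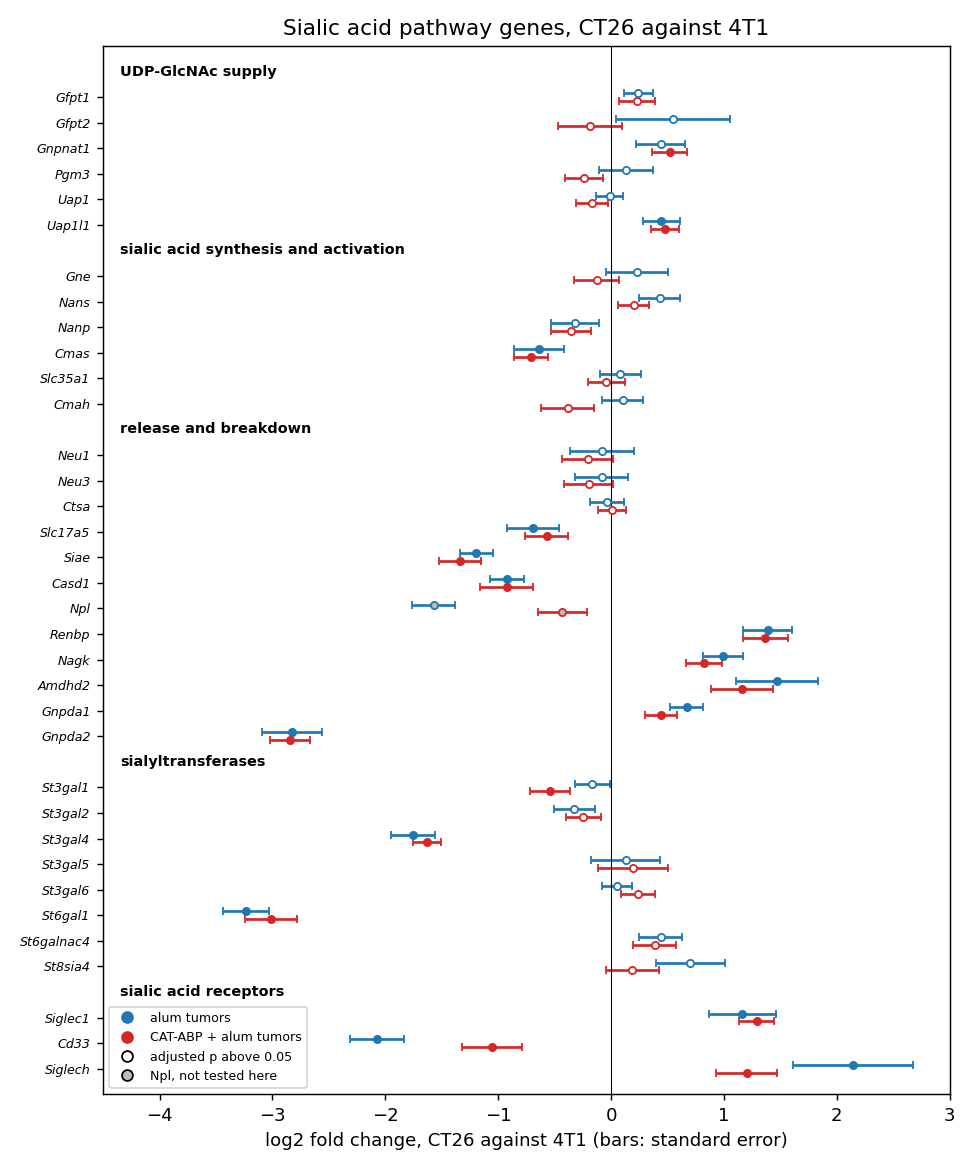
Log2 fold change between CT26 and 4T1 (x axis, bars are standard errors) of the sialic acid pathway genes tested in both comparisons (y axis, by role). Blue is alum tumors and red CAT-ABP + alum tumors, filled where the adjusted p was 0.05 or less and open where it was not, with Npl in gray as not tested. St6gal1 and Gnpda2 lie farthest to the left, at -3.24 to -2.82, and Renbp to the right of 1 in both.

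Which enzymes followed Npl from tumor to tumor was asked after the mean of each of the 7 groups was taken from the log2 CPM, which leaves the differences between groups out. Over the 38 tumors, 0 of the 6 passed when adjusted over all genes (limma with Benjamini-Hochberg adjustment), and 10 of 14645 genes did (0.0683%). The highest was Renbp, with Pearson's r of 0.40 (permutation within groups, p = 0.0317, and by limma adjusted p = 0.628). Its Spearman's rho was 0.42 (permutation p = 0.0149). Its r was 0.42 in CT26 (n = 11), 0.35 in 4T1 (n = 11) and 0.44 in 4T1-control and 4T1-CAT together (n = 16). Without the 2 tumors farthest from the median of Npl, 4T1 CAT-ABP + alum replicate 1 and 4T1-CAT alum replicate 1, it was 0.35 (permutation p = 0.0663). In technical replicate 2 alone it was 0.01.

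Neu1, which frees the sugar that Npl splits, ran the other way, with an r of -0.35 (permutation p = 0.00861, adjusted p = 0.641 by limma) and rho of -0.40 (p = 0.00728). It was -0.71 in CT26, -0.20 in 4T1 and -0.35 in 4T1-control and 4T1-CAT, and -0.38 without the 2 farthest tumors. This direction did not hold on CPM from raw totals, where r was 0.01, or in technical replicate 1 alone, where it was 0.14. Over all tumors, Nagk (r 0.22, permutation p = 0.216), Nans (0.18, p = 0.323), Cmas (-0.26, p = 0.124) and Gne (-0.03, p = 0.869) showed less, with adjusted p of 0.646 or more by limma. In CT26, 4T1, and 4T1-control and 4T1-CAT, Nagk had 0.62, 0.37 and -0.05, and Nans 0.47, 0.51 and -0.03. Cmas had -0.30, -0.24 and -0.33 there, and Gne -0.12, 0.13 and -0.11. On raw totals, the sign for Nagk and Cmas also flipped, to -0.15 and 0.08. The log2 total count of a tumor had an r of -0.12 with Npl, -0.31 with Renbp and 0.21 with Neu1, with permutation p of 0.552, 0.120 and 0.252.

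The genes most like Npl were not enzymes of the sugar. Of 10704 genes with a mean of at least 5 CPM, the 8 with the highest r over the 38 tumors were Fcgrt (0.75), Folr2 (0.72), Rnase4 (0.71), Ccl8 (0.70), Ms4a6d (0.69), Ccl24 (0.69), Prl3d2 (0.68) and Tmem37 (0.67). Fcgrt is the chain of the neonatal Fc receptor, Folr2 a folate receptor of macrophages, Rnase4 a secreted ribonuclease, Ms4a6d a membrane protein of myeloid cells, and Ccl8 and Ccl24 are chemokines. Reads of Prl3d2 may be shared with its near-identical paralogs, and it was at 0 in every CT26 alum tumor. Folr2, Ms4a6d and Rnase4 had an r of 0.54 to 0.82 in CT26 and 0.59 to 0.81 in both sets of 4T1 tumors, while that of Ccl8 was 0.02 in CT26, 0.90 in 4T1 and 0.76 in 4T1-control and 4T1-CAT. The lowest r were those of Col8a1, a collagen of vessel walls (-0.78), Idh2, a mitochondrial isocitrate dehydrogenase (-0.62), and Gsto1, a glutathione transferase (-0.62). These are descriptions with no p, in which each r takes both genes from the same libraries, and Renbp ranked 151 on the same scale.

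These values were lower within single libraries. In technical replicate 1 alone r was 0.50 for Fcgrt, 0.63 for Folr2 and -0.55 for Col8a1, and in technical replicate 2 alone 0.12, 0.39 and -0.52, and Gsto1 had 0.02 there. Ccl24 had 0.30 in technical replicate 1, and Rnase4 had 0.39, Ms4a6d 0.42 and Idh2 -0.12 in technical replicate 2. On raw totals Fcgrt had 0.78 and Folr2 0.69, while Col8a1, Idh2 and Gsto1 had -0.42, -0.23 and -0.32. Between the CT26 groups, these genes are given beside Npl without a test. Folr2 had a mean of 83.1 CPM in CT26 given alum and 96.3 with CAT-ABP + alum, and Fcgrt 49.8 and 59.9.

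Macrophage markers are given beside these genes, which were picked for their r. The mean of its 15 markers had an r of 0.23 with Npl over the 38 tumors, -0.32 in CT26, 0.62 in 4T1 and 0.32 in 4T1-control and 4T1-CAT. Of the other marker lists, erythroid cells had 0.29 and T and NK cells 0.25 (0.64 in 4T1), and the rest lay between -0.20 and 0.21 over all tumors. Within CT26, adipocytes had -0.78, skeletal muscle -0.66 and epithelial cells 0.55, and within 4T1, erythroid cells had 0.56 and dendritic cells 0.54. Without the 2 tumors farthest from the median of Npl, erythroid cells had 0.38, macrophages 0.13 and T and NK cells 0.08. Among macrophage markers, Cd163 (r 0.64) and Mrc1 (0.58), both receptors of tissue macrophages, stood high, and Lyz2 (-0.09) and Csf1r (-0.05), the receptor for the growth factor of macrophages, near 0. Of the other markers, Cd3g, a T cell gene, had 0.56 and Cd209a, of dendritic cells, 0.52. With the macrophage mean, whose own r with Npl was 0.23, regressed out, Fcgrt had an r of 0.74 and Renbp one of 0.36. Removing a mean of so low an r could change these values little, and the part of macrophages in them was not tested.

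**Figure D5:**
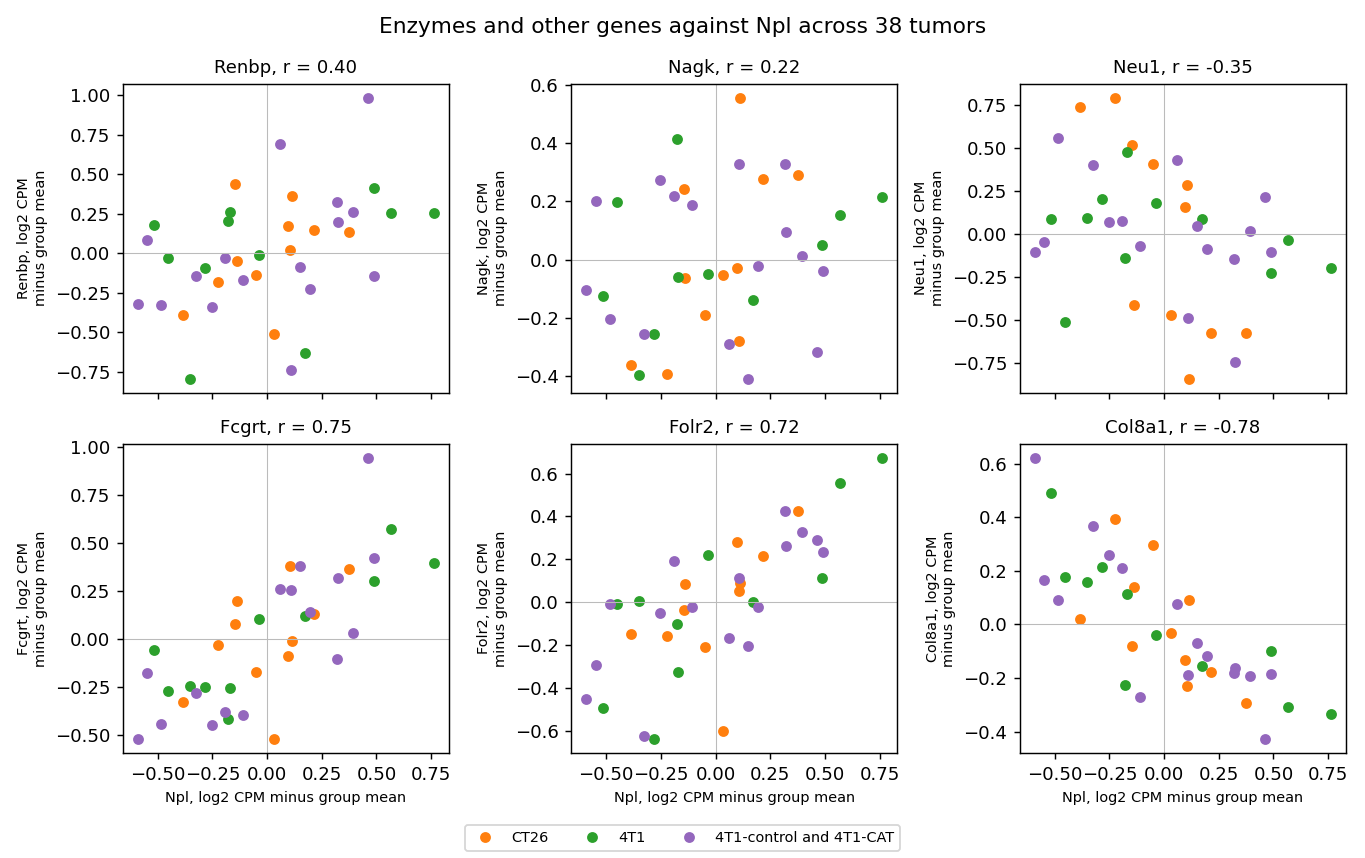
Log2 CPM of 6 genes (y axes) against that of Npl (x axes) in the 38 tumors, each after the mean of its group was taken off, with Pearson's r above each panel. Orange is CT26, green 4T1 and purple 4T1-control and 4T1-CAT. Fcgrt, Folr2 and Col8a1 (r of 0.75, 0.72 and -0.78) are shown as genes picked for their r, beside Renbp, Nagk and Neu1 (0.40, 0.22 and -0.35), which were not.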

How the data were processed

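RNA of 38 tumors was sequenced with HT3DGE, a 3′-end method, in 76 libraries. Per the labels and the study's methods, the authors ran a Smart-seq2 workflow on Terra to obtain reads per gene, and the deposited estimated counts carry no normalization (39.7% of non-zero values were not whole). Libraries of low depth that the authors excluded are not named, so all were kept. The expected counts of the 2 libraries of a tumor were added and rounded, so p-values measure the spread between tumors. After filterByExpr and TMM scaling, each comparison was fitted on its own groups in edgeR (quasi-likelihood) and called at an adjusted p of 0.05. Log2 CPM used a prior count of 2. Correlations were tested by 100000 two-sided permutations of tumors within groups, and over all genes with limma, with group and Npl as terms. Named beside the 7 enzymes were the next 3 genes by p, up to 6 pathway genes per comparison and those of at least 50 CPM, the 8 highest and 3 lowest r, and markers. Clock genes were added after the next 3 genes by p were seen. Enzymes and lists were chosen with earlier results of these data known. Fits were tested on simulated data. Over the 7 comparisons, 50.8% to 79.4% of 2-fold changes were recovered, and fewer of smaller ones. Of the calls made there, 4.1% to 10.6% were false. R 4.3.3, edgeR 4.0.16, limma 3.58.1 and DESeq2 1.42.0 were used.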

Additional observations from a re-analysis of the deposited data

Results flagged for a closer look

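Of the 49 combinations of an enzyme and a group, 3 held a tumor far from the others of its group, and chance gives about 1 in 20. Nans had 35.1 CPM in 4T1-control alum replicate 2, the shallowest tumor of the study, where the other 5 had at most 20.7. Nans had 17.0 CPM in 4T1-CAT CAT-ABP + alum replicate 4, where the other 4 had between 23.3 and 23.6. Renbp had 19.7 CPM in 4T1-CAT alum replicate 5, one of the tumors with the most Npl, where the other 4 had at most 8.78.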

How the results depend on the processing

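Renbp and Nagk kept their direction and their call between CT26 and 4T1 under every alternative run. No enzyme was called in the other comparisons, except in EC CAT in CT26, where 1 of the 7, and 1 pathway gene, was called by DESeq2, by limma voom and without the filter on low counts. That gene is Npl, which was chosen on this comparison, so these calls are no test. The genes called in that comparison were 1 by DESeq2, 1 by voom, 2 without the filter and 2 in 1 model over all 7 groups. Without the filter, 25 genes were called for EC CAT in 4T1, 162 for IC CAT, 26 for EC CAT in 4T1-CAT and 177 for 4T1-control against 4T1. DESeq2 called 6 for IC CAT, 266 for EC CAT in 4T1-CAT and 16 for 4T1-control against 4T1. Voom called 10 and 12 in the last pair. 4T1-control against 4T1 also gave 12 in the model over all groups, 18 without libraries of low depth, 1 with the index tag set as a covariate, 1 within the shared set (an alternative chosen after seeing the data), and 0 with RLE size factors and in each technical replicate alone. Technical replicate 2 alone called 2 for EC CAT in 4T1, and 3094 and 3933 between CT26 and 4T1 with alum and CAT-ABP + alum, 9 of the latter in the pathway. When permutation p were adjusted over the 6 enzymes and not over all genes, which is not independent of their choice, 0 passed for correlation with Npl and 1 did with the macrophage mean regressed out. On raw totals, Cmas and Neu1 had 19.3 and 17.8 CPM in 4T1-CAT given CAT-ABP + alum. The causes were not tested.

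With the replicate number as a block (replicate block), 3 genes were called for EC CAT in 4T1-CAT and 0 for 4T1-control against 4T1, and no call of the 7 enzymes changed. Equal numbers did not pair tumors: deviations of same-numbered tumors had an r between -0.29 and 0.33.

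Without each tumor in turn, genes called ranged from 0 to 20 for 4T1-control against 4T1, 0 to 155 for EC CAT in 4T1-CAT (155 without alum replicate 2, 4 and 1 without CAT-ABP + alum replicates 3 and 5) and 0 to 1 for IC CAT, and enzymes correlated with Npl, by the permutation p over the 6, from 0 to 2. Log2 fold changes whose sign turned ranged from -0.069 to 0.084 (Cmas), -0.088 to 0.16 (Neu1) and -0.30 to 0.032 (Npl) for EC CAT in 4T1, from -0.069 to 0.11 (Cmas) and -0.14 to 0.017 (Nagk) for IC CAT, from -0.40 to 0.047 (Gne), -0.039 to 0.13 (Nagk) and -0.038 to 0.12 (Nans) for 4T1-control against 4T1, and from -0.30 to 0.092 (Neu1, alum) and -0.19 to 0.0048 (Gne, CAT-ABP + alum) between CT26 and 4T1. The r of Gne ranged from -0.11 to 0.057.

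Other signs that turned were of values not called. For EC CAT in 4T1 these were Npl 0.037, Cmas -0.21 and Neu1 -0.29 with the index tag set as a covariate and 0.038, -0.21 and -0.29 within the shared set, Npl 0.096 in technical replicate 1, and Cmas -0.17, Neu1 -0.42, Renbp 0.057 and Nagk -0.065 in technical replicate 2. For IC CAT they were Nagk 0.10 (technical replicate 1) and 0.032 (voom), and Cmas -0.045 (technical replicate 2). For EC CAT in 4T1-CAT they were Nans 0.14 and Renbp 0.068 in technical replicate 2. For 4T1-control against 4T1 they were Nans -0.14, Neu1 -0.0090 and Nagk -0.050 in technical replicate 2, Nans -0.039 without libraries of low depth, -0.12 with the covariate and -0.087 within the shared set, and Nagk -0.0071 by voom. Between CT26 and 4T1, Neu1 had 0.061 (technical replicate 1) and 0.12 (voom) with alum, and 0.24 (technical replicate 2) with CAT-ABP + alum. The r with Npl was 0.079 (Cmas), 0.011 (Neu1) and -0.15 (Nagk) on raw totals, 0.20 (Cmas), 0.34 (Gne) and 0.14 (Neu1) in technical replicate 1, -0.013 (Nans) and 0.022 (Gsto1) in technical replicate 2, and 0.012 (Gne) with the macrophage mean regressed out.

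Depth limits the low genes most: Gne, Neu1 and Renbp had as few as 4 counts in a tumor.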

Other observations

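For correlation with Npl across the 38 tumors after group means were taken off, 0 other genes of the pathway passed. Of all genes, 10 of 14645 (0.0683%) did, so 0 in a short list is no result about the pathway. Of the 12 tested genes of release and breakdown other than Npl, 0 passed in limma with Benjamini-Hochberg adjustment over all genes, and their median r was 0.08, beside -0.03 over all genes. The 9 sialyltransferases had a median r of -0.21 and 0 passed. The lowest were St3gal2 (r -0.40) and St6gal1 (r -0.37), and the highest of the pathway after Renbp were Nanp, the phosphatase that frees newly made sialic acid (0.35), and Ctsa (0.31).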
